A study of Mus musculus with 5 samples.

Results

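The genes described here encode proteins of the astrocyte endfoot, the part of an astrocyte that wraps blood vessels. They are *Aqp4* and 8 partner genes (*Kcnj10*, *Dag1*, *Dmd*, *Dtna*, *Mlc1*, *Hepacam*, *Gja1* and *Gjb6*), and all 9 were found by symbol among the 23361 genes listed for every library. The list was selected on the *Aqp4* values of these same libraries, in which that gene had been seen to differ between genotypes. Its difference is therefore given as a description with no test, and the question put to the data was whether its partners differed too. RNA-seq was carried out on hippocampus of mice aged 3 months. The control group was Hdac1f/f (n = 2) and the conditional knockout group, called cKO, was Hdac1f/f with Nestin-Cre (n = 3). *Hdac1* encodes a class I histone deacetylase. Both groups carried the floxed allele and the Cre driver was present in the cKO only, so deletion of *Hdac1* and presence of Nestin-Cre cannot be told apart. Nestin-Cre acts in neural progenitors, and according to the study HDAC1 was lost from neurons and astrocytes but not from microglia, so whole tissue also holds cells in which the gene is intact.

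Endfeet cover brain vessels and exchange water and ions with the perivascular space. Aquaporin 4, the product of *Aqp4*, is the main water channel of astrocytes and is held at the endfoot membrane by a complex with dystrophin and dystrobrevin, while dystroglycan ties this complex to laminin and agrin in the basal lamina. The inward rectifier Kir4.1, encoded by *Kcnj10*, takes up potassium released by neurons and is clustered at the same membrane, where MLC1 and GlialCAM take part in volume regulation and connexins 43 and 30 form the gap junctions that join astrocytes into a network.

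Values are FPKM, fragments scaled by transcript length and by the number mapped in the library, as the authors computed them. The 5 libraries totalled 565363 to 636705 FPKM, and 12680 to 12745 genes reached 1 FPKM in each. The study gives a mean read yield over its RNA-seq samples, some of them not used here, and no total for each library. The steps between low FPKM values put the depth at about 5170000 fragments in cKO 2 and 6320000 to 6790000 in the other libraries, which is approximate. The same steps divide the libraries into 2 sets that each hold both genotypes, control 1 with cKO 1 (set 1) and control 2 with cKO 2 and cKO 3 (set 2), and differences are also given within sets. The libraries also differed in how FPKM depended on the GC content of the transcript, with a slope from -0.14 log2 units per 10 percentage points of GC in cKO 2 to 0.11 in control 1. The deleted gene itself, *Hdac1* (chromosome 4, 129193348 to 129219957, minus strand, mm9), measured 8.95 and 13.1 FPKM in the controls, with 1.95, 3.12 and 3.37 FPKM in the cKO, so every cKO library held less than either control. Summed markers of neurons (3022 to 3478 FPKM over the libraries), astrocytes (5239 to 5607 FPKM) and oligodendrocytes (1725 to 2213 FPKM) were present in every library, as hippocampal tissue should hold.

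*Aqp4* (chromosome 18, 15547903 to 15562193, minus strand, mm9) stood at 54.4 FPKM in both controls. In the cKO it was at 89.4, 98.4 and 94.6 FPKM. Every cKO library lay above both controls, as in 11.0% of the 12740 genes tested below. The lowest cKO value was further from the controls than from any other cKO value. *Aqp4* was chosen on these values, so both statements only describe them. The mean was 54.4 ± 0.0357 FPKM (SD, n = 2) in the controls against 94.1 ± 4.51 FPKM (SD, n = 3) in the cKO, a ratio of 1.73 and a difference of 0.78 on the log2(FPKM + 1) scale (SE 0.09). The difference was 0.71 in set 1 and 0.81 in set 2, or ratios of 1.64 and 1.77. It was 0.70 after correction for GC content, which is low in this transcript (40.7%). About 1860 to 3070 fragments stood behind each value by the estimated depth. The summed level of 18 other astrocyte markers was also higher in every cKO library (5517 to 5607 FPKM) than in the controls (5239 to 5406 FPKM), but as a share of each library's total FPKM the groups overlapped (0.868% to 0.963% in the cKO, 0.927% in both controls). Its part in the *Aqp4*, *Mlc1* and *Gja1* differences was not tested. In bulk tissue, more astrocytes and more *Aqp4* RNA in each astrocyte cannot be told apart. By GFAP staining, the study saw no difference between young cKO and control mice in the number or size of astrocytes or in GFAP intensity. Staining measures protein in sections, and its bearing on the *Aqp4* difference was not tested.

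**Figure D1:**
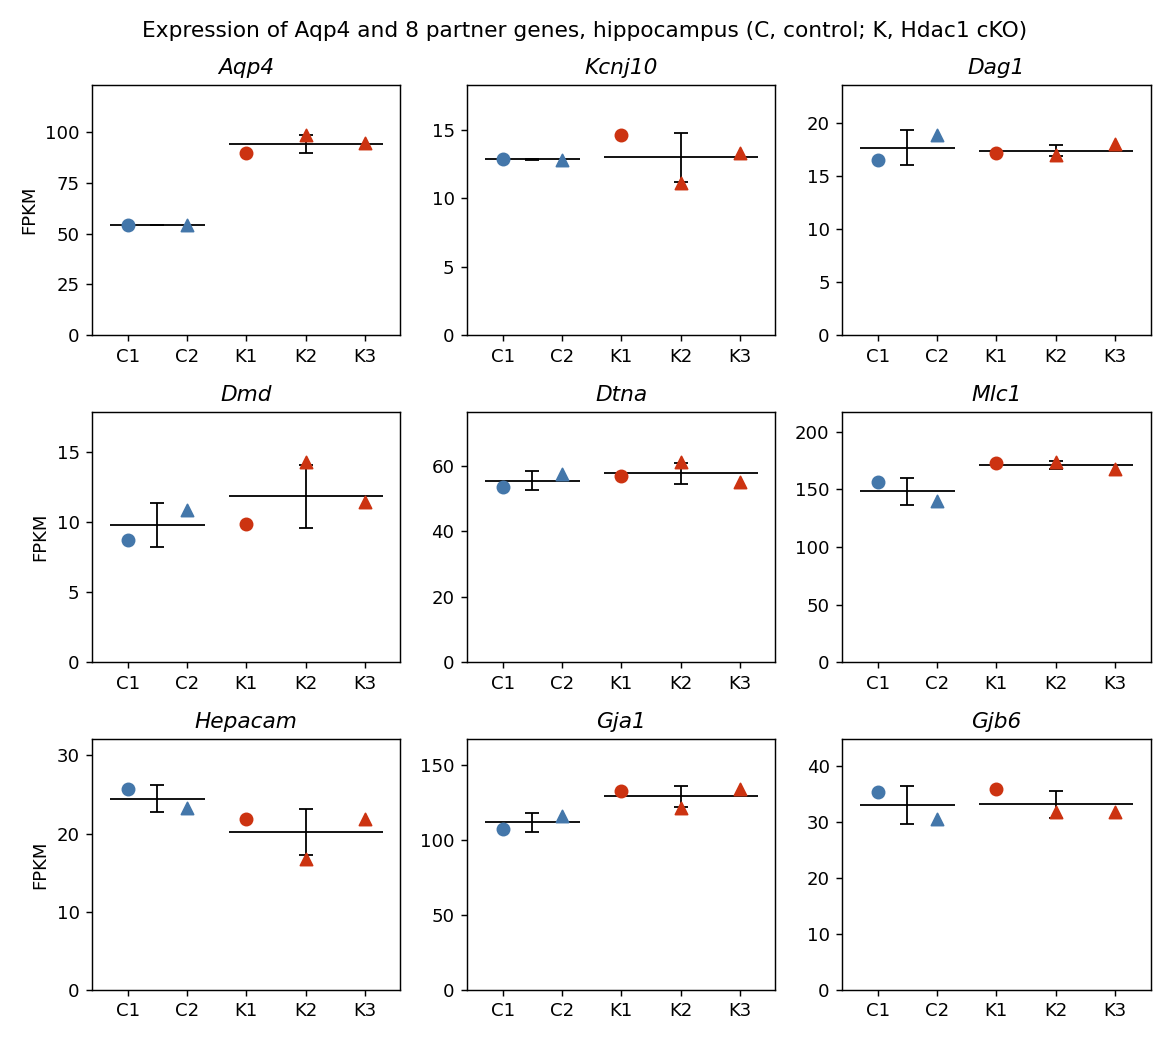
FPKM of the 9 genes in each library (C1 and C2, controls, blue; K1 to K3, cKO, red; circles, set 1; triangles, set 2), with the group mean as a line and the SD as a bar, every vertical axis starting at 0. *Aqp4* sits at 54.4 FPKM in both controls and between 89.4 and 98.4 FPKM in each cKO library, while 5 of the 8 partners have overlapping groups.

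None of the 8 partners passed the test. Each gene was tested with limma, which fits a linear model to log2(FPKM + 1) and moderates the variance across genes, and p-values were adjusted by the Benjamini-Hochberg method over the 12740 genes whose mean reached 1 FPKM. All 9 members passed that filter. At a limma adjusted p under 0.05 the count was 0 of 8 partners, against 0.00785% of all tested genes (1 gene). The deleted gene *Hdac1* did not pass either (log2 difference -1.66, unadjusted limma p 5.16e-05, adjusted p 0.219). With the library set as a block its adjusted limma p was 0.00389. Missing this limit therefore does not show that a gene is unchanged. At an unadjusted limma p under 0.05 the count of partners was again 0 of 8, against 4.36% of all tested genes. Without cKO 1 it was 1 (*Dmd*), against 7.61% of all tested genes, and without cKO 2 it was 1 (*Gja1*), against 3.04%. The study's own limits, a fold change of at least 1.5 with an unadjusted p under 0.05, were met by 0 of 8 partners and by 0.659% of tested genes. With the library set as a block the unadjusted limit was met by *Mlc1* and *Gja1*, 2 of 8, against 9.34% of all tested genes, and neither passed adjustment. The groups did not overlap for 3 partners. Every cKO library was above both controls for *Mlc1* and *Gja1*, as in 11.0% of all tested genes, and below both for *Hepacam*, as in 9.41%. The partners' log2 differences were positive in 6 and negative in 2, with a median of 0.031 where the median over all tested genes was 0.015. Rescaling the libraries to a common total turned the partners' median to -0.033 and that of all genes to -0.045.

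The potassium channel had overlapping groups. *Kcnj10* (chromosome 1, 174271341 to 174304216, plus strand) measured 12.9 and 12.8 FPKM in the controls, with 14.6, 11.1 and 13.3 FPKM in the cKO. One cKO library lay below both controls and the other cKO libraries above them, so the groups overlapped. The log2 difference was 0.0087 (SE 0.13, limma adjusted p = 0.994), and its 95% interval allows a ratio between 0.815 and 1.24. It was 0.17 in set 1 and -0.070 in set 2. The direction is not stable, since rescaling to a common total or by median-ratio size factors, the GC correction and leaving out cKO 1 or cKO 3 each turn it negative.

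The 3 genes of the dystrophin anchor had overlapping groups. *Dag1* (chromosome 9, 108108286 to 108166255, minus strand), which encodes the alpha and beta subunits of dystroglycan, measured 16.5 and 18.9 FPKM in the controls, with 17.2, 17.0 and 18.0 FPKM in the cKO. All 3 cKO values fell between the controls, the log2 difference was -0.019 (SE 0.11, limma adjusted p = 0.989), and the 95% interval allows a ratio from 0.832 to 1.17. The GC correction and leaving out control 2 each give *Dag1* a positive sign, and its difference was 0.057 in set 1 and -0.10 in set 2.

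*Dmd* (chromosome X, 80194209 to 82451480, plus strand), the dystrophin gene, has several promoters, one of them for the short form Dp71 that is found in glia, and the gene-level FPKM used here does not separate them. It measured 8.71 and 10.9 FPKM in the controls, with 9.87, 14.3 and 11.4 FPKM in the cKO. Only cKO 1 fell between the controls, and cKO 2 was the highest. The log2 difference was 0.25 (SE 0.17, limma adjusted p = 0.955), the largest SE among the partners, and its 95% interval allows a ratio from 0.909 to 1.55. With one library left out it ran from 0.098 (without control 1) to 0.39 (without control 2), and without both cKO 2 and control 1, the libraries with the most distant GC slopes, it was -0.034. The unadjusted limma p was 0.0494 without cKO 1 and 0.0440 with the replicate number as a block. The *Dmd* transcript is also low in GC (41.5%), and the GC correction gave 0.17. The *Dmd* difference was 0.16 in set 1 and 0.21 in set 2.

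*Dtna* (chromosome 18, 23573916 to 23818215, plus strand) encodes alpha-dystrobrevin, which binds dystrophin. It measured 53.4 and 57.5 FPKM in the controls, with 56.8, 61.1 and 55.0 FPKM in the cKO, with only cKO 2 outside the control range. The log2 difference was 0.054 (SE 0.10, limma adjusted p = 0.980), the 95% interval allows a ratio from 0.889 to 1.21, and the sign turns negative on rescaling to a common total and without cKO 2 and control 1. The difference was 0.085 in set 1 and 0.012 in set 2. With one library left out it ran from 0.0021 (without control 1) through 0.012 (without cKO 2) to 0.11 (without control 2).

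MLC1 and GlialCAM, which bind each other in the endfoot membrane and are mutated in megalencephalic leukoencephalopathy with subcortical cysts, had differences of opposite sign, neither of which passed adjustment. *Mlc1* (chromosome 15, 88786314 to 88809437, minus strand) measured 156 and 140 FPKM in the controls, with 172, 174 and 167 FPKM in the cKO. All 3 cKO libraries were above both controls, and the gap between cKO 3 and control 1 was smaller than the gap between the controls. The mean was 148 ± 11.4 FPKM (SD, n = 2) in the controls against 171 ± 3.27 FPKM (SD, n = 3) in the cKO. The log2 difference of 0.21 (SE 0.09) gave a limma p of 0.0583 before adjustment and 0.955 after it, with a 95% interval for the ratio of 0.994 to 1.34. With the library set as a block the unadjusted p was 0.0107 and the adjusted p 0.465. The difference was 0.14 in set 1 and 0.28 in set 2, and 0.13 without control 2.

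*Hepacam* (chromosome 9, 37174953 to 37194157, plus strand), which encodes GlialCAM, measured 25.7 and 23.2 FPKM in the controls, with 21.8, 16.8 and 21.9 FPKM in the cKO. All 3 cKO libraries were below both controls, cKO 2 by the most. The mean was 24.4 ± 1.72 FPKM (SD, n = 2) in the controls against 20.2 ± 2.93 FPKM (SD, n = 3) in the cKO. The log2 difference was -0.27 (SE 0.14), for a limma p of 0.0820 before adjustment and 0.955 after it, and the 95% interval for the ratio ran from 0.665 to 1.03. It was -0.22 in set 1 and -0.26 in set 2, and -0.15 without cKO 2, the library with the lowest estimated depth and the steepest GC slope. The *Hepacam* transcript has 53.3% GC, and the GC correction gave -0.26. With the replicate number as a block, which leaves cKO 3 out of the difference, its unadjusted limma p was 0.00957 and its adjusted p 0.353.

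Of the astrocyte connexins, one had separate groups and the other did not. *Gja1* (chromosome 10, 56097106 to 56110225, plus strand), which encodes connexin 43, measured 107 and 116 FPKM in the controls, with 133, 121 and 133 FPKM in the cKO. Every cKO library was above both controls, cKO 2 by the least. The mean was 111 ± 6.13 FPKM (SD, n = 2) in the controls against 129 ± 7.08 FPKM (SD, n = 3) in the cKO. The log2 difference was 0.21 (SE 0.10), for a limma p of 0.0643 before adjustment and 0.955 after it, with a 95% interval for the ratio of 0.989 to 1.35. It was 0.31 in set 1 and 0.13 in set 2, and 0.15 after the GC correction. With the library set as a block the unadjusted p was 0.0275 and the adjusted p 0.497.

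*Gjb6* (chromosome 14, 57742140 to 57752448, minus strand), which encodes connexin 30, measured 35.3 and 30.5 FPKM in the controls, with 35.8, 31.7 and 31.7 FPKM in the cKO. Its 2 highest libraries were control 1 and cKO 1, which share set 1, and the groups overlapped. The log2 difference was 0.0084 (SE 0.11, limma adjusted p = 0.994), the 95% interval allows a ratio from 0.843 to 1.20, and every rescaling tried as well as the GC correction turns the sign negative. Within sets it was 0.019 (set 1) and 0.054 (set 2).

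**Figure D2:**
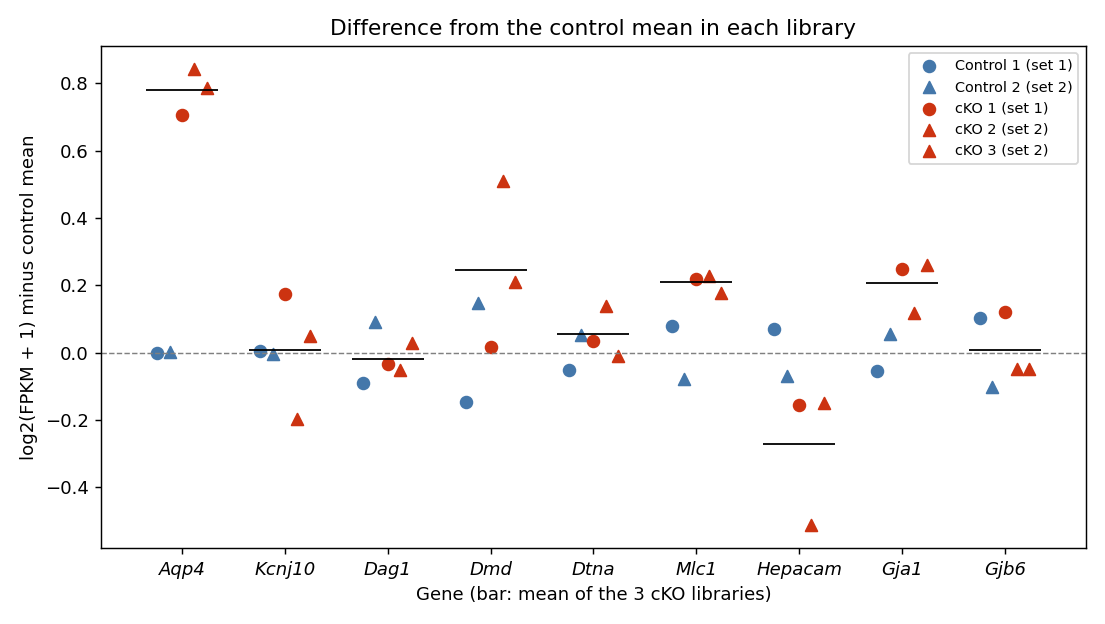
Difference of each library from the control mean on the log2(FPKM + 1) scale, for *Aqp4* and the 8 partners (blue, control; red, cKO; circles, set 1; triangles, set 2; bar, mean of the 3 cKO libraries). The bar is at 0.78 for *Aqp4* and between -0.27 (*Hepacam*) and 0.25 (*Dmd*) for the partners.

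The 250 bases before the transcription start are shown for the 3 partners whose groups did not overlap, with those of *Kcnj10*, whose groups overlapped, for contrast. They are RefSeq sequences of the GRCm38.p6 build, which is not the build of the expression values, written 5′ to 3′ on the strand of the gene, and 7 of the 9 members had an entry. Capitals mark the GC box GGGCGG, searched on both strands (CCGCCC on the other), the letters that Sp1 family factors are known to bind. The windows are chr15:88978554-88978803 (minus strand) for *Mlc1*, chr9:37367356-37367605 (plus) for *Hepacam*, chr10:56377050-56377299 (plus) for *Gja1* and chr1:172340960-172341209 (plus) for *Kcnj10*.
Mlc1: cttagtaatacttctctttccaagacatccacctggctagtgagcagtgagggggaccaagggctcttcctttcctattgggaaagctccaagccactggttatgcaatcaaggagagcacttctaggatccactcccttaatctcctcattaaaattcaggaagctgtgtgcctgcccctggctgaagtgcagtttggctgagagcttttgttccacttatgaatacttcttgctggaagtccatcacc
Hepacam: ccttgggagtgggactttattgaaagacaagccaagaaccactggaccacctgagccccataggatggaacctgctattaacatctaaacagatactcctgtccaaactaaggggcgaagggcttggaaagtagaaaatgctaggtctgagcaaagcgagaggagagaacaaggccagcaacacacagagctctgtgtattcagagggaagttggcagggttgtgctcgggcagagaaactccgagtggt
Gja1: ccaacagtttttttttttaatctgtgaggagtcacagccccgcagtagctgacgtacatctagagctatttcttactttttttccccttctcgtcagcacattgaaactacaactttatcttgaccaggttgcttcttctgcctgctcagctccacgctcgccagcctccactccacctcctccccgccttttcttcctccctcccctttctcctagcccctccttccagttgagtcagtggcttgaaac
Kcnj10: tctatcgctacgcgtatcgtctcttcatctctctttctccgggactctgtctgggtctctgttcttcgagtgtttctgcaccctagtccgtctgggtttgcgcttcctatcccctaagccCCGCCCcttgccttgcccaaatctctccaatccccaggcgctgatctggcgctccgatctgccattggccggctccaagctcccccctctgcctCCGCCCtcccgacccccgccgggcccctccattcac
The *Kcnj10* window holds the letters at 2 places, and the *Mlc1*, *Hepacam* and *Gja1* windows at none. Of the other members with an entry, *Dag1* holds 3 in each of its windows, *Dmd* 3 in one of its windows and 0 in another, and *Gjb6* 0. The same letters occur in 32.7% of the 32851 mouse promoters of this length, whose median GC content is 52.4%. A match of letters is no evidence of binding, and the absence of a match says only that these letters are not in the window.

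*Aqp4* was then set against each partner inside the same library, which removes any factor that scales a whole library. Its ratio to *Kcnj10* was 4.22 and 4.25 in the controls, against 6.12, 8.88 and 7.10 in the cKO. Its ratio to *Dtna*, the member nearest to it in control level, was 1.02 and 0.947 in the controls, against 1.58, 1.61 and 1.72 in the cKO. For all 8 partners every cKO ratio was above both control ratios. *Aqp4* is the numerator of each ratio, so any gene that differs little between the groups would separate in this way. The share of all tested genes that do so was not computed, and the count is no result about the partners. The ratio of the group means ran from 1.44 for *Dmd* through 1.49 for *Mlc1* and 1.5 for *Gja1* to 2.13 for *Hepacam*. Against the mean of the 8 partners on the log2(FPKM + 1) scale, *Aqp4* stood 0.67 and 0.65 higher in the controls, against 1.29, 1.48 and 1.38 higher in the cKO, a group difference of 0.72. The partners' own mean differed by 0.055 between the groups, at 5.12 and 5.14 in the controls against 5.21, 5.15 and 5.19 in the cKO. It was thus slightly higher in every cKO library, a separation that 11.0% of single tested genes had in that direction. The partners' summed level was 410 to 416 FPKM in the controls and 446 to 461 FPKM in the cKO. It was not computed as a share of each library's total FPKM. Because *Aqp4* was picked for its difference these separations carry no test.

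**Figure D3:**
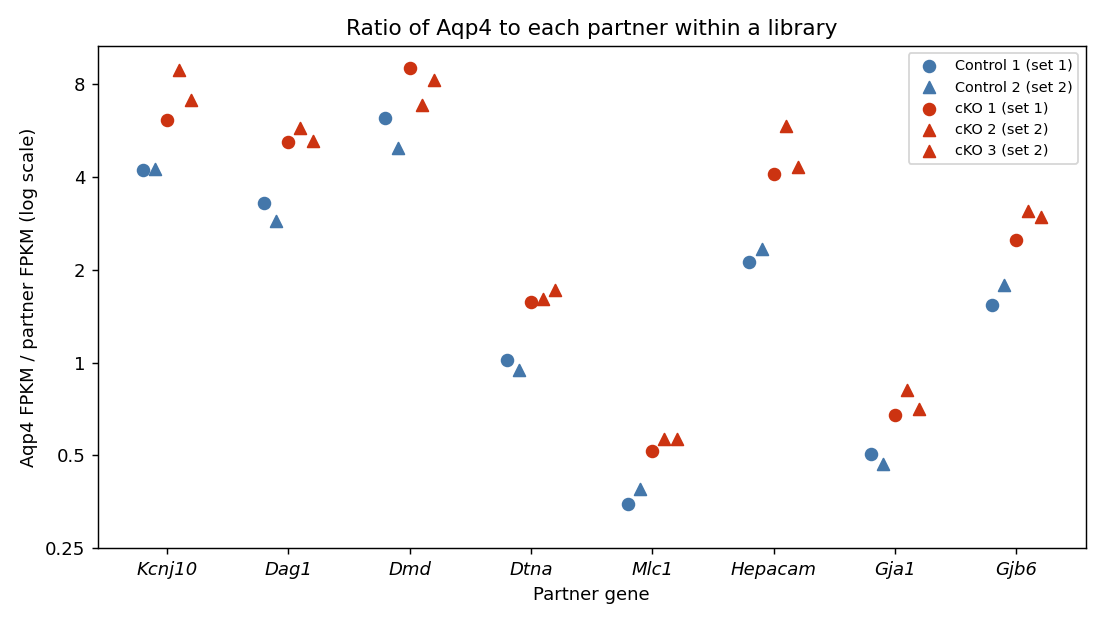
*Aqp4* FPKM divided by the FPKM of each partner in the same library, on a log2-spaced axis (blue, control; red, cKO; circles, set 1; triangles, set 2). For each of the 8 partners all 3 cKO points lie above both control points, for example 6.12 to 8.88 against 4.22 and 4.25 for *Kcnj10*. *Aqp4*, which was chosen for its difference, is the numerator of every ratio, so any gene that differs little between the groups would separate in this way.

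The order of levels placed *Mlc1* first among the members, with a mean of 162 FPKM over the 5 libraries, followed by *Gja1* at 122, *Aqp4* at 78.2, *Dtna* at 56.8, *Gjb6* at 33.0, *Hepacam* at 21.9, *Dag1* at 17.5, *Kcnj10* at 12.9 and *Dmd* at 11.0 FPKM. Since FPKM is scaled by transcript length, these levels can be set side by side. *Aqp4* and *Dtna* were at like levels in the controls (54.4 against 53.4 and 57.5 FPKM) but not in the cKO (89.4 to 98.4 against 55.0 to 61.1 FPKM). Over all 5 libraries the ranges of *Hepacam* (16.8 to 25.7 FPKM) and *Dag1* (16.5 to 18.9 FPKM) overlapped, as did those of *Kcnj10* (11.1 to 14.6 FPKM) and *Dmd* (8.71 to 14.3 FPKM). In the controls *Hepacam* (25.7 and 23.2 FPKM) lay above *Dag1* (16.5 and 18.9 FPKM), and *Kcnj10* (12.9 and 12.8 FPKM) above *Dmd* (8.71 and 10.9 FPKM). Within a library only cKO 2 reversed these orders (*Hepacam* 16.8 against 17.0 FPKM, *Kcnj10* 11.1 against 14.3 FPKM).

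The wider pathway was read from lists of genes chosen with earlier results of these data known. Over all 12740 tested genes, 6844 had a higher and 5896 a lower mean in the cKO on the log2 scale, and 4.36% were under an unadjusted limma p of 0.05. The other genes of the dystrophin complex (among them dystrobrevin beta, the sarcoglycans, sarcospan and utrophin) had 4 of 11 tested members higher and 7 lower, with a median log2 difference of -0.042. Of these *Sgcd*, delta-sarcoglycan, measured 2.01 and 3.76 FPKM in the controls, with 2.13, 1.47 and 1.08 FPKM in the cKO (log2 difference -0.59, unadjusted limma p 0.0421, adjusted p 0.955). With the library set as a block its unadjusted limma p was 0.0515. With the replicate number as a block its difference was -0.45 and its unadjusted limma p 0.117. Its difference was 0.053 in set 1 and -1.07 in set 2, and it was -0.26 without control 2 (unadjusted limma p 0.355) and -0.92 without control 1 (unadjusted p 0.00663). In a fit with 1 control, that library is assumed to vary like the cKO libraries, which supply its spread. *Dtnb*, the other dystrobrevin, measured 60.6 and 54.4 FPKM in the controls, with 66.3, 58.4 and 54.6 FPKM in the cKO, with overlapping groups.

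The enzymes that put laminin-binding glycans on dystroglycan had 9 of 15 tested members higher and 6 lower, and 0 under an unadjusted limma p of 0.05 in either direction (4.36% of all tested genes). *Large*, which builds that glycan, ran from 46.0 to 66.8 FPKM and *B3gnt1* (now called *B4gat1*), which primes it, from 54.3 to 62.9 FPKM, with overlapping groups in both. The basal lamina ligands had 7 of 14 members above the filter, 4 higher, 3 lower and 0 under an unadjusted p of 0.05, against the same 4.36%. *Agrn*, agrin, measured 13.6 and 14.2 FPKM in the controls, with 1 cKO library above and another below both, and *Lamb2*, laminin beta 2, ran from 5.64 to 9.07 FPKM over all libraries, again with overlap.

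Other channels, pumps and transporters for astrocyte ions and volume gave 5 of 13 tested members higher and 8 lower, 0 under an unadjusted limma p of 0.05 (4.36% of all tested genes), and a median of -0.074. *Fxyd1*, an auxiliary subunit of the sodium pump, measured 64.9 and 57.4 FPKM in the controls, with 49.3, 61.0 and 50.2 FPKM in the cKO. Its groups overlapped.

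No other water channel came near the level of *Aqp4*. Of 11 other aquaporins, 2 passed the filter and 3 were listed at 0 in every library. *Aqp11*, an aquaporin of intracellular membranes, measured 17.6 and 10.9 FPKM in the controls, with 17.6, 12.2 and 13.3 FPKM in the cKO, with the highest values in the libraries of set 1. *Aqp9*, an aquaglyceroporin, lay between 0.659 and 1.31 FPKM. The other connexins and pannexins had 2 of 9 tested members higher and 7 lower. *Panx2*, pannexin 2, measured 24.1 and 17.5 FPKM in the controls, with 17.8, 11.0 and 13.1 FPKM in the cKO (log2 difference -0.55, unadjusted limma p 0.0269, adjusted p 0.955), with cKO 1 above control 2. The *Panx2* difference was -0.33 without control 1 (unadjusted limma p 0.192), -0.77 without control 2 (unadjusted p 0.00954) and -0.18 without control 1 and cKO 2 (unadjusted p 0.349). It was -0.47 with the library set as a block (unadjusted p 0.00171) and -0.42 with the GC correction (unadjusted p 0.00661). *Gjc3*, connexin 29 of oligodendrocytes, ran from 9.90 to 12.8 FPKM with overlap.

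**Figure D4:**
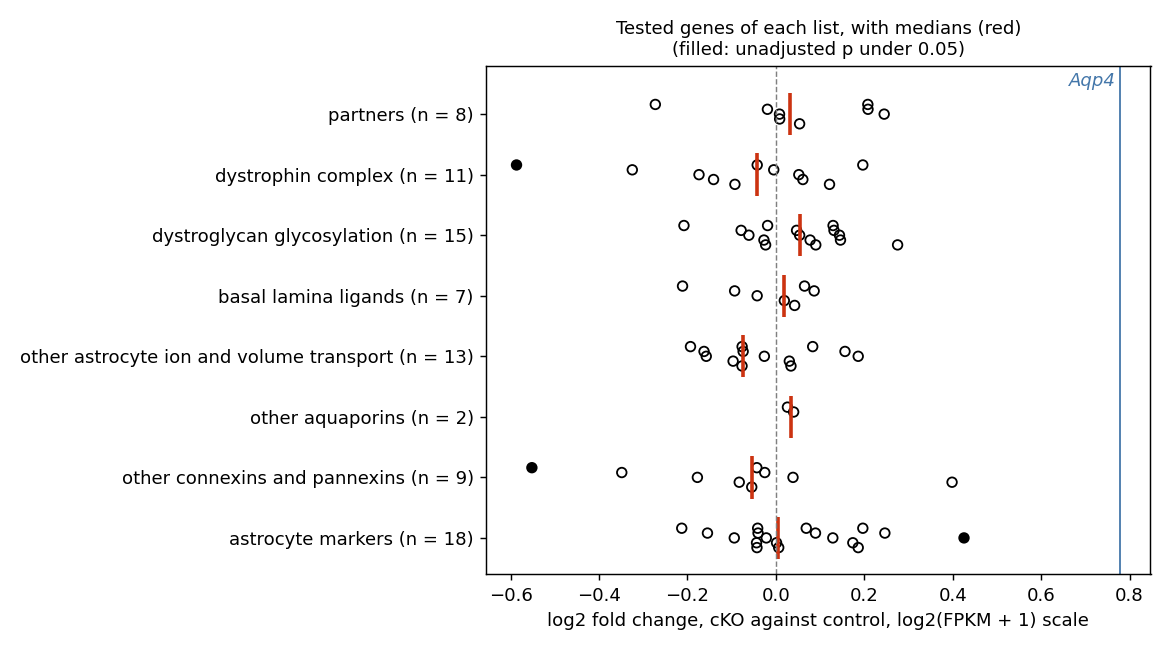
log2 difference between cKO and control (limma, log2(FPKM + 1) scale) for each tested gene of the partner list, the 6 pathway lists and the astrocyte markers, with the median of each list in red and filled points where the unadjusted p is under 0.05. *Aqp4* (blue line, 0.78) lies to the right of every plotted gene, the nearest being *Gfap* at 0.43. *Aqp4* was chosen for its difference, so its place beside these lists is no result. *Fabp7*, which is in none of them, had a difference of 0.83.

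Astrocyte markers were examined beside the members, since all 9 are expressed by astrocytes, though *Dag1* and *Dmd* are made by other brain cells too. The list of 18 markers, none of them a member, had 10 genes higher and 8 lower, with a median log2 difference of 0.0041, or 8 higher and 10 lower with a median of -0.062 on rescaling to a common total. Of the 18, 6 had every cKO library above both controls, as in 11.0% of all tested genes (*Gfap*, *S100b*, *Slc1a2*, *Slc1a3*, *Acsbg1* and *Cldn10*), and 2 had every one below, as in 9.41% (*Slc6a11* and *Cbs*). Of these only *Gfap* falls under the rule for named genes, and the others were named after their values were seen. *Gfap*, the intermediate filament of astrocytes that rises in reactive states, was the one marker under an unadjusted limma p of 0.05 with no block (4.36% of all tested genes). It measured 309 and 263 FPKM in the controls, with 374, 364 and 415 FPKM in the cKO (log2 difference 0.43, unadjusted limma p 0.0054, adjusted p 0.955). Its difference was 0.31 without control 2. It was 0.44 with the library set as a block (unadjusted limma p 0.00168, adjusted p 0.405) and 0.46 with the GC correction (unadjusted limma p 0.00138, adjusted p 0.698). For the protein, the study's staining showed no difference in GFAP intensity at this age. With the library set as a block 5 of the 18 were under an unadjusted limma p of 0.05, against 9.34% of all tested genes, 4 of them higher (*Gfap*, *Slc1a2*, *Slc1a3*, *Acsbg1*) and 1 lower (*Slc6a11*). The glutamate transporter genes measured 758 and 781 FPKM (*Slc1a2*) and 242 and 279 FPKM (*Slc1a3*) in the controls, against 865 to 895 FPKM and 280 to 325 FPKM in the cKO. Neuron markers were lower in 14 of 15 (median log2 difference -0.085, 2 under an unadjusted limma p of 0.05 where 4.36% of all tested genes were), also on rescaling to a common total. Oligodendrocyte markers were higher in 10 of 12 (median 0.12, 1 under an unadjusted p of 0.05, against the same 4.36%), or in 8 of 12 on that rescaling. The summed levels of both overlapped between the groups, and their part in the members' differences was not tested. Endothelial markers were lower in 7 of 11 (1 under an unadjusted limma p of 0.05, against the same 4.36%), or in 9 of 11 on that rescaling. Mural cell markers were higher in 6 of 6 (0 under that p), or in 3 of 6 on that rescaling. The part of the vessel markers in the members' differences was not tested. Summed markers of ependymal cells, which also make aquaporin 4, were at 28.2 to 31.3 FPKM in the controls and 22.1 to 34.1 FPKM in the cKO. Choroid plexus markers varied widely within both groups, from 7.13 to 168 FPKM in the controls and from 25.8 to 605 FPKM in the cKO. Leptomeningeal fibroblast markers were at 44.7 to 54.8 FPKM in the controls and 55.1 to 64.8 FPKM in the cKO, without overlap, but overlapped as a share of total FPKM. All 5 tested leptomeningeal markers were higher, or 4 of 5 on rescaling to a common total, and 1 was under an unadjusted limma p of 0.05 (4.36% of all tested genes). This was *Igf2*, a growth factor gene named after its values were seen, with 7.53 and 4.41 FPKM in the controls and 9.40 to 15.2 FPKM in the cKO. The part of the leptomeningeal level in the *Aqp4* difference was not tested.

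The genes most like *Aqp4* over the 5 libraries were taken from the 6445 genes whose mean reached 10 FPKM, by the root mean square difference of their centred log2(FPKM + 1) profiles. This is a description, and as *Aqp4* was chosen for its difference, genes near it share that difference by construction. The nearest was *S100a10* (0.148 log2 units), an annexin A2 partner, at 46.2 and 55.6 FPKM in the controls against 69.5, 82.8 and 72.1 FPKM in the cKO. *Lrp4* (0.157), a receptor for agrin, measured 16.5 and 16.9 FPKM in the controls, with 23.9, 23.6 and 23.3 FPKM in the cKO. *Ednrb* (0.166), the endothelin B receptor, was at 25.3 and 22.7 FPKM against 34.2, 33.6 and 33.2 FPKM. All 3 cKO values were above both control values for each of these genes. *Slc7a11* (0.172), the cystine-glutamate exchanger, measured 12.3 and 12.7 FPKM in the controls, with 18.3, 17.0 and 17.6 FPKM in the cKO, and *Fabp7* (0.174), the brain fatty acid binding protein of radial glia and astrocytes, at 84.3 and 75.0 FPKM in the controls against 114, 146 and 173 FPKM in the cKO. In the same order of 6445 genes the nearest partners were *Mlc1* at rank 290, *Gja1* at 393 and *Dmd* at 464. *Dtna* ranked 2165, *Gjb6* 3682, *Dag1* 3760, *Kcnj10* 4185 and *Hepacam* 6214.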

How the data were processed

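RNA-seq libraries of total RNA from mouse hippocampus were made and sequenced by the authors, who deposited FPKM per gene for each of the 5 libraries. The submitters' processing notes name TopHat, Bowtie, Cufflinks 2.0.0 and mm9. FPKM are not counts, so no count test was used and counting intervals were not computed. Groups and replicate numbers came from the sample titles. Nothing in the labels says more of how replicates were taken, so p-values measure the spread between these 5 libraries. The 12740 of 23361 genes whose mean reached 1 FPKM were fitted with limma 3.58.1 in R 4.3.3 (lmFit, eBayes with trend) on log2(FPKM + 1), two-sided, with genotype as the only term and Benjamini-Hochberg adjustment over all of them. A pseudocount of 1 understates changes of low genes. The script was tested on simulated data.

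The members and lists were chosen with earlier results of these data known. Named genes were the 9 members, *Hdac1*, the pathway list members and astrocyte markers under an unadjusted p of 0.05, the 2 highest by mean FPKM of each pathway list and the 5 genes most like *Aqp4*. Other marker genes were added after their values were seen. Some genes that this rule names are not reported here. Coordinates are those of NCBIM37 (mm9), 1-based. GC content was known for 11760 tested genes (92.3%). No member shares exonic sequence with another annotated gene or has a near-identical copy (BLAST 2.17.0). *Hdac1* has a near-identical copy, *Gm10093*. Alternatives were a pseudocount of 0.1, other filters and scalings, no variance trend, blocks by replicate number or library set, each library left out and each set alone. The replicate block gives the same differences as leaving out cKO 3. A GC correction (loess, span 0.5, alone and with each block) and a fit without cKO 2 and control 1 were added after seeing the data.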

Additional observations from a re-analysis of the deposited data

How the results depend on the processing

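The *Aqp4* log2 difference of 0.78 was positive under all 20 alternatives, between 0.69 and 0.82. These reuse the libraries on whose values *Aqp4* was chosen, so the constant sign is no independent evidence. The *Aqp4* values below show only how far its size depends on the processing. The *Aqp4* difference was 0.71 on rescaling to a common total, 0.71 within set 1 and 0.70 with the GC correction. With the GC correction it was 0.71 with the library set as a block and 0.69 with the replicate block. The *Aqp4* difference from the partners' mean was 0.62 within set 1. Over the alternatives *Mlc1* (0.13 to 0.29) and *Gja1* (0.13 to 0.31) kept a positive sign and *Hepacam* (-0.34 to -0.08) a negative one, and no partner had an adjusted limma p under 0.05 in the 18 alternatives with a test.

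Partners under an unadjusted limma p of 0.05 are given here with the share of all tested genes under it. They numbered 2 with no filter on FPKM (*Mlc1*, *Gja1*; 4.72%), 1 on rescaling to a common total (*Hepacam*; 4.32%), 2 with the library set as a block (9.34%), 1 with the GC correction and the library set (*Mlc1*; 9.76%), 2 with the GC correction and the replicate block (*Mlc1*, *Hepacam*; 10.1%) and 3 with the replicate block alone (*Dmd*, *Mlc1*, *Hepacam*; 11.2%), and 0 to 1 with a library left out (3.04% to 7.61%). The controls and cKO share the numbers 1 and 2 only, and the labels do not say what a number shares. Number 3 is held by cKO 3 alone, so with the replicate block that library does not enter the difference. The differences then equal those without cKO 3 (for *Hepacam* -0.33 in both), so these 2 alternatives are not separate in effect size. Same-numbered libraries deviated together from their group means (r = 0.402 and 0.269 across genes). Both pairs also share a library set (control 1 with cKO 1, control 2 with cKO 2), so number and set cannot be told apart in them. With 2 controls the control deviations mirror each other, so the 2 correlations are not independent. Genes under an adjusted limma p of 0.05 numbered 14 with the replicate block and 1 without.

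The partners' median of 0.031 became -0.033 on rescaling to a common total, where the median of all genes was -0.045. It was 0.061 with the replicate block, 0.11 within set 1 and 0.026 to 0.089 with a library left out. *Kcnj10* reversed to -0.054 on rescaling to a common total, -0.0062 with median-ratio size factors, -0.012 with the replicate block, -0.012 with the GC correction and -0.017 with both, and ran from -0.074 to 0.11 with a library left out. *Gjb6* reversed to -0.056, -0.0074 and -0.0067 with a common total, median-ratio size factors and quantile normalization, and to -0.013 with the GC correction, and ran from -0.093 to 0.11 with a library left out. *Dag1* reversed to 0.011 with the GC correction and 0.00080 with that and the replicate block, and ran from -0.11 to 0.073 with a library left out. *Dtna* was -0.012 with a common total. Without cKO 2 and control 1, *Dmd* was -0.034 and *Dtna* -0.040. *Sgcd* was 0.053 within set 1, *Dag1* 0.057 within set 1 and *Kcnj10* -0.070 within set 2. The cause of these reversals was not tested.

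With 2 controls and 3 cKO libraries, the spread between controls rests on a single difference, and differences within set 1 compare 1 library with 1. A fit without 1 control assumes that the other varies like the cKO libraries. The estimated depth is approximate.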
